A study of Mus musculus with 2 samples.

Results

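In DNA of the mouse hypothalamus, 327 autosomal runs of array probes already gave high signal on the day of birth (P0) and at least 2-fold more at postnatal day 21 (P21). A run is a stretch of 2 or more neighbouring array probes with gaps of at most 500 bp. A run was a member when its mean log2 ratio of P21 over P0 was at least 1, P21 was at least 1.5-fold above P0 on each of the 2 arrays, and its mean log2 processed signal at P0 was 10 or more. Of 18427 autosomal runs, 8366 had a P0 signal of 10 or more, and 327 of these were members, which is 3.91% of the bright runs (Wilson 95% interval 3.51 to 4.35%). Among all autosomal runs 3.75% gained by the same ratio rule, and among those with P0 signal under 10 the share was 3.62% (364 of 10061). Ratios and P0 signal chose the members, so both are given as a description with no test. Intervals of shares cover counting error only.

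The DNA came from hypothalami of female mice at P0 and at P21, both groups being non-agouti animals on mixed C57BL/6J and C3H/HeJ stock. No other treatment or allele is named for either age. Array A had the P0 sample in Cy5 (red) and the P21 sample in Cy3 (green), and array B the reverse. The 2 arrays are named biological replicates, with neither the number of animals nor pooling given, so every ± below is the SD between 2 arrays. Whole hypothalamus holds neurons, glia and other cells, and a change in a cell type cannot be told apart from a change in the mix of cells.

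The question was where methylation differs between newborn and 21-day-old hypothalamus. As background, DNA methylation places a methyl group on cytosine, in mammals mostly where a guanine follows, and its pattern is still being laid down in the brain after birth, while glia multiply and neurons mature. The assay, a methylation-specific amplification microarray, cut 500 ng of DNA with SmaI and then XmaI. Both enzymes recognise CCCGGG. SmaI leaves blunt ends and cuts only unmethylated sites, and XmaI then cuts the methylated ones to sticky ends, to which adaptors are ligated. A fragment is amplified by PCR when the sites at both its ends were methylated. Higher signal therefore means more such fragments and is not a percentage of methylation. The median ratio of each array lies at 0, so ratios compare places with each other. A member thus gave bright signal from P0 DNA and more from P21 DNA. Positions are on genome build mm8, as in the scanner files. The files pair 0 probes with a gene, so regions are named by position alone.

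Signal was well above background for 93.8 to 95.3% of non-control spots in the 4 channels, and the median log2 ratio was 0 on both arrays. No spot was saturated (0 on both arrays). Within the members, every probe was well above background in all 4 channels in 326 of 327 runs.

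At birth the members lay low among the bright runs, and at P21 their median was above that of the other bright runs. Their median P0 signal was 11.3 on the log2 scale (array A 11.4, array B 11.2), or 2458 in linear units. Their median P21 signal was 12.9 (13.1 and 12.7), or 7626 in linear units. The 8039 other bright runs had medians of 12.4 at P0 (middle 50% from 11.2 to 13.5) and 12.5 at P21 (11.2 to 13.6). So at birth most members were dimmer than a typical bright run, with 54 of 327 (16.5%) above its median P0 signal, and at P21 226 (69.1%) were above that same level. Ranked among all autosomal runs, the median member moved from percentile 67.1 at P0 to 81.2 at P21. The number at percentile 90 or above went from 7 to 79. P21 signal follows from P0 signal and the ratio, and both chose the members. A rise was therefore set by the rule, and these values are a description. At P21, 55 members (16.8%) had a log2 signal of 14 or more, and among the other bright runs the share was 16.6%.

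**Figure D1:**
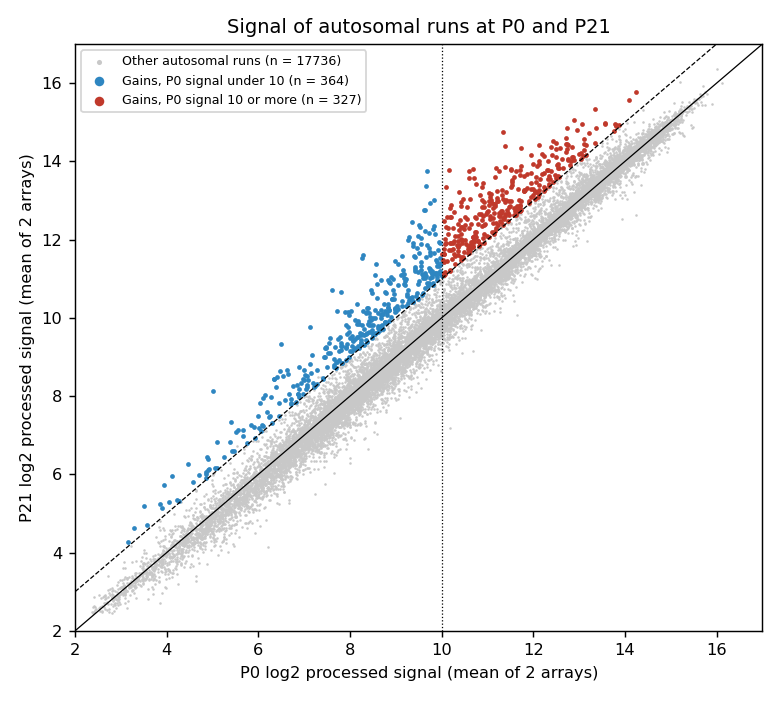
Mean log2 processed signal of each autosomal run at P0 (x axis) and P21 (y axis) over the 2 arrays. Red points are the 327 gains from P0 signal of 10 or more, blue points the 364 gains from lower signal and grey points the other runs. The solid line marks equal signal, the dashed line a log2 ratio of 1 and the dotted line a P0 signal of 10. The red points thin out towards the right, and 2 of them lie at a P0 signal of 14 or more.

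The median log2 ratio of the members was 1.46, a 2.76-fold gain, with array medians of 1.51 (A) and 1.43 (B). The middle 50% lay between 1.18 and 1.84. By size, 177 members (54.1%) had a ratio from 1 to under 1.5, 95 (29.1%) from 1.5 to under 2, and 55 (16.8%) of 2 or more. A ratio of 3 or more, which is 8-fold, was reached by 6. All autosomal runs had a median ratio of -0.02 and the other bright runs of -0.01. The gains from lower P0 signal had a median of 1.41 and a highest value of 4.07, against 3.62 for the members.

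Gains were most frequent among runs with a P0 signal from 10 to under 12, with lower shares above and below. Of 1864 runs with P0 signal from 10 to under 11, 130 (6.97%) were members, with a median ratio of 1.58. From 11 to under 12 there were 108 of 1656 (6.52%, median 1.46). These are the highest shares of the 1-unit classes from 4 to 16, and the classes just below had 4.45% (8 to under 9) and 5.10% (9 to under 10). The classes from 4 to under 8 had shares between 2.21 and 3.01%. From 12 to under 13 the share was 3.63% (66 of 1817, median 1.39), and from 13 to under 14 it was 1.18% (21 of 1785, median 1.17). From 14 to under 15, 2 of 1097 runs were members (0.182%, ratios described below), and from 15 to under 16 none was (0 of 145). No spot carried the saturation flag, and whether signal was limited in other ways at the bright end was not tested. Over the 327 members P0 signal and ratio had r = -0.26, against 0.19 over gains from lower P0 signal and 0.06 over the other bright runs. P0 signal is the denominator of the ratio and both chose the members, so these values are a description.

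The mirror image was scarce. With the sign turned, 17 of the 8366 bright runs (0.203%) met the same rule in the direction of lower signal at P21. Their median ratio was -1.12 and their signal went from a median of 12.08 to 11.02. On chr3:88715413-88715708 the arrays gave ratios of -1.35 (A) and -1.46 (B). When ratios were left as red over green, so that the dyes no longer matched the ages, 1 bright run met the rule in either direction (0.012%).

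The largest gain lay at chr17:14430390-14430811, where the log2 signal rose on array A from 10.22 to 14.04 and on array B from 10.11 to 13.52. The ratios were 3.82 and 3.42, a mean of 3.62 ± 0.28 or 12.3-fold. This run began just above the P0 limit and ended among the brighter members. At chr2:60353846-60354482 the signal rose on array A from 11.51 to 14.96 and on array B from 11.17 to 14.51. The ratios of 3.45 and 3.34 gave 3.40 ± 0.078, a change from 2597 to 27322 in linear units. Here the start was close to the typical member, and the P21 signal was far above it on both arrays. At chr2:33258736-33259377 the signal went on array A from 10.22 to 13.49 and on array B from 9.99 to 13.20, a gain of 3.24 ± 0.042 (9.48-fold).

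A ratio of 3 or more was also found at chr5:135538166-135539070 (3.11 and 3.21, mean 3.16 ± 0.069), at chr1:133799084-133799923 (3.07 and 3.17, mean 3.12 ± 0.072) and at chr13:100339581-100340176 (3.14 and 2.87, mean 3.01 ± 0.19). The last of these started brighter than the others, at 11.4, and reached 14.4. The next 6 had means from 2.64 to 2.98 and lay at chr2:10160612-10160958, chr11:102557435-102557784, chr10:44575042-44575759, chr14:24151058-24151434, chr5:106559784-106560302 and chr9:100082004-100082410. The chromosome 11 run had nearly the same ratio on both arrays, 2.86 and 2.86. All 12 of these runs held 4 probes, and every probe in them was at least 1.5-fold higher at P21 on each array. They lay on 9 chromosomes. None was among the 6 members of highest P0 signal or the 6 of highest P21 signal (0 shared with either).

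The 6 members brightest at birth had ratios from 1.06 to 1.54, below those of the 12 largest gains. At chr7:44469452-44469933 the log2 signal on array A was 14.6 at P0 and 15.9 at P21, and on array B 13.9 and 15.6. That is a change from 19222 to 55733 in linear units, with ratios of 1.33 and 1.74 (mean 1.54 ± 0.29). At chr2:129206826-129207375 the signal rose on array A from 14.3 to 15.7 and on array B from 13.8 to 15.5 (ratios 1.347 and 1.645, mean 1.496 ± 0.21). These were the brightest members at both ages. The other 4 by P0 signal lay between 13.8 and 13.9 and had ratios from 1.06 to 1.17, close to the limit: chr15:86112126-86112617, chr8:109169159-109169563, chr19:48120576-48121146 and chr2:92396610-92397405.

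The 6 members brightest at P21 include 3 that are not among the 6 brightest at birth. At chr8:123012943-123013554 the signal rose on array A from 13.6 to 15.5 and on array B from 13.1 to 15.2, a mean ratio of 1.99 ± 0.17. At chr1:182731046-182731553 it rose from 13.4 to 15.2 and from 12.4 to 14.9. The ratios there, 1.84 and 2.48, differed more between arrays than in most members (mean 2.16 ± 0.45). At chr7:132573962-132574548 they were 1.43 and 1.41.

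Both arrays gave like ratios for most members. Each array was at 1 or more in 280 of 327 members (85.6%), and in 81.3% of gains from lower P0 signal. The rule, with its limits on the mean and on each array, favours this. The median difference in size between arrays was 0.17 and the largest 0.76. The arrays differed by under 0.2 in 188 members (57.5%) and by 0.5 or more in 18 (5.50%). Among the other bright runs 55.0% differed by under 0.2 and 7.92% by 0.5 or more, so the members were near the bright runs in this. Among gains from lower P0 signal 55 of 364 (15.1%) differed by 0.5 or more. Over the 327 members the ratios of the 2 arrays had r = 0.88, given as a description, since members were chosen on these values. The largest differences were at chr11:77623494-77624290 (A 1.73, B 0.97), chr13:57899269-57899556 (0.73 and 1.43), chr7:45898555-45898735 (1.51 and 0.85) and the chromosome 1 run just named.

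Which array read higher went with brightness. Array A was above array B in 204 members (62.4%). It was above in 87 of 130 members with P0 signal from 10 to under 11 and in 78 of 108 from 11 to under 12. It was above in 31 of 66 members from 12 to under 13 and in 8 of 23 members at 13 or more. The median difference, A minus B, was 0.13 in both dimmer classes, -0.01 in the next and -0.10 in the brightest. These differences are small beside the ratios, whose medians in the brightest class were 1.21 (A) and 1.23 (B). The part of the dyes in this was not tested.

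**Figure D2:**
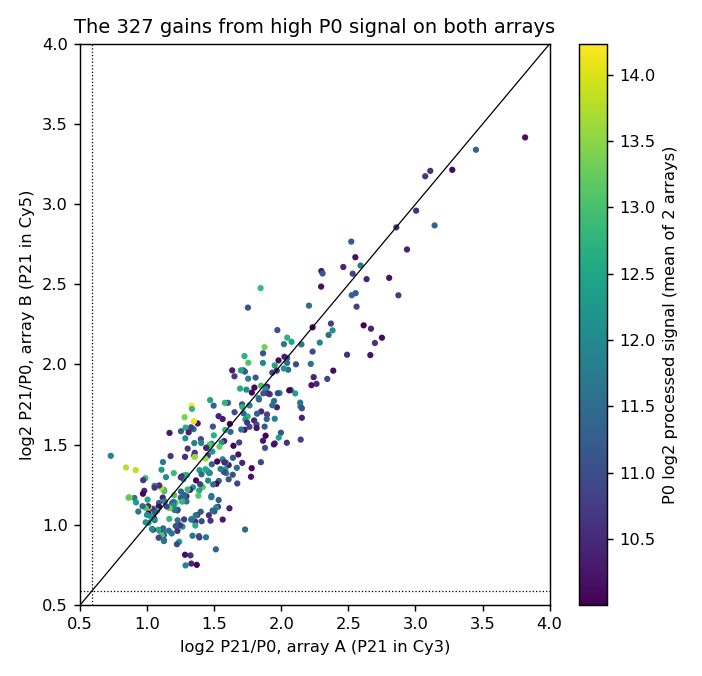
The log2 P21/P0 ratio of the 327 members on array A (x axis) and array B (y axis), coloured by mean log2 P0 signal. The solid line marks equal ratios and the dotted lines the limit of 1.5-fold on each array. Most points lie close to the line, the brightest at birth (yellow) near its lower end.

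The members were mostly runs of 4 probes. There were 241 of these (73.7%, Wilson 95% interval 68.7 to 78.2%), against 61.0% of the other bright runs, 48.6% of gains from lower P0 signal and 51.0% of all runs. Runs of 2 probes made up 7 members (2.14%), against 9.49% of other bright runs and 12.1% of gains from lower signal. Runs of 3 probes were 18 (5.50%), of 5 to 8 probes 43 (13.1%), and of over 8 probes 18 (5.50%). Thus 61 members (18.7%) held over 4 probes, close to the 19.5% of other bright runs and below the 29.7% of gains from lower signal.

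**Figure D3:**
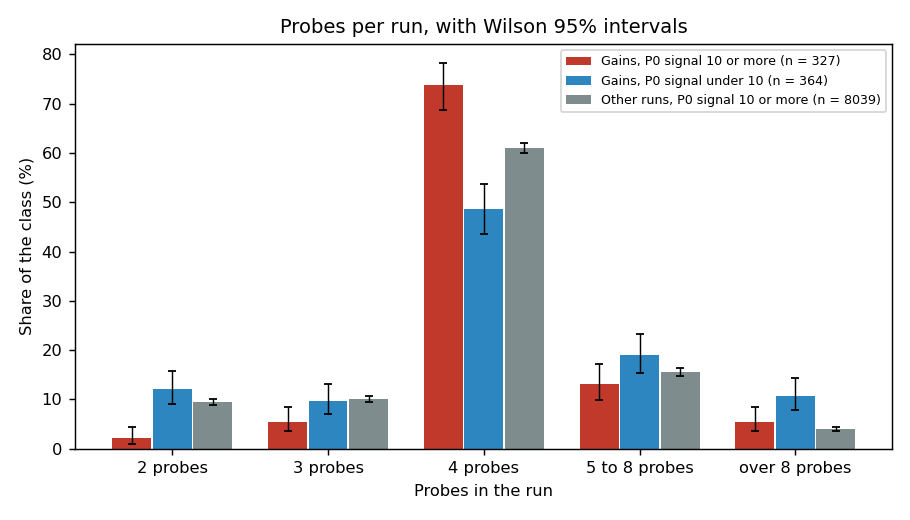
Share of runs (%) by number of probes in the 327 members (red), the 364 gains from P0 signal under 10 (blue) and the 8039 other runs with P0 signal of 10 or more (grey), with Wilson 95% intervals for counting error. The 4-probe class holds 73.7% of the members, and the 2-probe class 2.14%.

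The median span from first to last base was 594 bp in members, with the middle 50% between 458 and 823 bp and a range of 68 to 3276 bp. Gains from lower P0 signal were longer, with a median of 798 bp, and other bright runs had 579 bp. Very short and long runs were both less frequent among members than among the other bright runs. Spans under 300 bp made up 8.87% of members and 18.9% of other bright runs, and spans of 900 bp or more 19.9% and 25.8%. In gains from lower signal 41.8% reached 900 bp. Probe spacing, the span divided by the number of probes, had a median of 144 bp per probe, against 143 in other bright runs and 181 in gains from lower signal. With 4-probe runs alone the median spans were 571, 565 and 728 bp. Mean probe length was similar, with medians of 51.0 nt in members, 52.3 in other bright runs and 53.0 in gains from lower signal. These differences depend on how probes are joined: against all autosomal runs that were not members, median span differed by -16.0 bp, and by 109 bp with gaps of at most 250 bp. Span runs from probe to probe and is not the length of the amplified fragment. Length could not be taken from a genome sequence here.

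Most probes of a member gained, which a rule on the run mean favours. Of 1580 probes, 1374 had a mean ratio of 1 or more and 1467 were at least 1.5-fold higher at P21 on each array. In 281 members (85.9%) every probe reached 1.5-fold on each array, including 228 of the 241 with 4 probes but 29 of the 61 with more. The SD between probes of a member had a median of 0.12, against 0.32 in gains from lower P0 signal and 0.05 in the other bright runs. Order along the run made little difference. In 4-probe members the median ratios of the probes were 1.40, 1.53, 1.52 and 1.49 from the lowest to the highest coordinate.

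In 4-probe runs the probes differed less in ratio than in brightness. In the 4-probe members the P0 signal ranged over a median of 1.36 log2 units from the dimmest to the brightest probe, and the ratio over 0.23. In the other bright runs of 4 probes the figures were 1.36 and 0.11. For this reason the P0 limit, which is set on the mean of a run, was not met by every probe. In 206 of the 327 members all probes had P0 signal of 10 or more, and in the others at least 1 probe was below.

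Long members were often a patchwork of steps. There were 40 members whose probe number was over 4 and a multiple of 4, 30 of them with 8 probes and 7 with 12. When their probes were taken 4 at a time in order of position, the ratio was nearly level within a set and jumped between sets. The median change from a probe to its neighbour was 0.07 within a set (282 steps) and 0.72 between sets (54 steps). Changes of 0.5 or more were 11 of 282 within sets and 38 of 54 between them. Neighbours were a median of 109 bp apart within sets and 78.5 bp between them, and the part of distance in the steps was not tested. With gaps up to 100 bp the median changes were 0.06 (133 steps) and 0.75 (32 steps). The other bright runs of this kind, 843 in number, had median changes of 0.05 within sets and 0.20 between them. Changes of 0.5 or more there were 60 of 5724 within sets and 175 of 1065 between them. The rule chose members for high ratios, which leaves room for larger steps than in the other bright runs. That comparison is a description, also because the sets were tried after single probes had been looked at.

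The 94 sets of 4 in these 40 members show how much of a long member gained. A mean ratio of 1 or more was found in 69 sets, from 1.5-fold to under 2-fold in 14, and under 1.5-fold in 11, of which 2 were below 0 on the log2 scale. All sets were at 1 or more in 19 of the 40 members, and 10 members had a set under 1.5-fold. Of the 69 sets at 1 or more, 15 had P0 signal under 10 themselves, and the run met the limit through its brighter sets.

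At chr9:114691338-114693555, with 16 probes and a run mean of 1.47 ± 0.20, the first set had ratios of 1.94 (A) and 2.11 (B). The second, at chr9:114691832-114692192, had 3.24 and 3.12. It is followed at chr9:114692205-114692520 by 0.23 and 0.74 and at chr9:114692860-114693555 by -0.10 and 0.45. So the strongest set ends 12 bp before a set in which array A was near 0, and 8 of the 16 probes reached 1.5-fold on both arrays.

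The member with most probes, chr12:111721543-111724577, held 20 over 3035 bp and had a mean of 1.27 ± 0.071. Its 5 sets had mean ratios of 0.89, 1.72, 0.45, 1.97 and 1.31 in order of position. On array A they were 0.89, 1.70, 0.51, 2.09 and 1.40, and on array B 0.88, 1.75, 0.40, 1.84 and 1.22. The order of high and low sets was the same on both arrays. The third and the fourth sets had P0 signal of 9.12 and 9.36, under the limit.

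Ratios at chr17:45906410-45908373 (16 probes) climbed from set to set, with means of 0.11, 0.85, 1.52 and 2.24. The last set had the lowest P0 signal of the 4, at 9.57, and the largest gain. At chr2:119434051-119435787 (12 probes) the last set, chr2:119435352-119435787, had ratios of 3.37 (A) and 3.22 (B). In its first set the arrays differed in sign, -0.57 (A) against 0.46 (B).

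**Figure D4:**
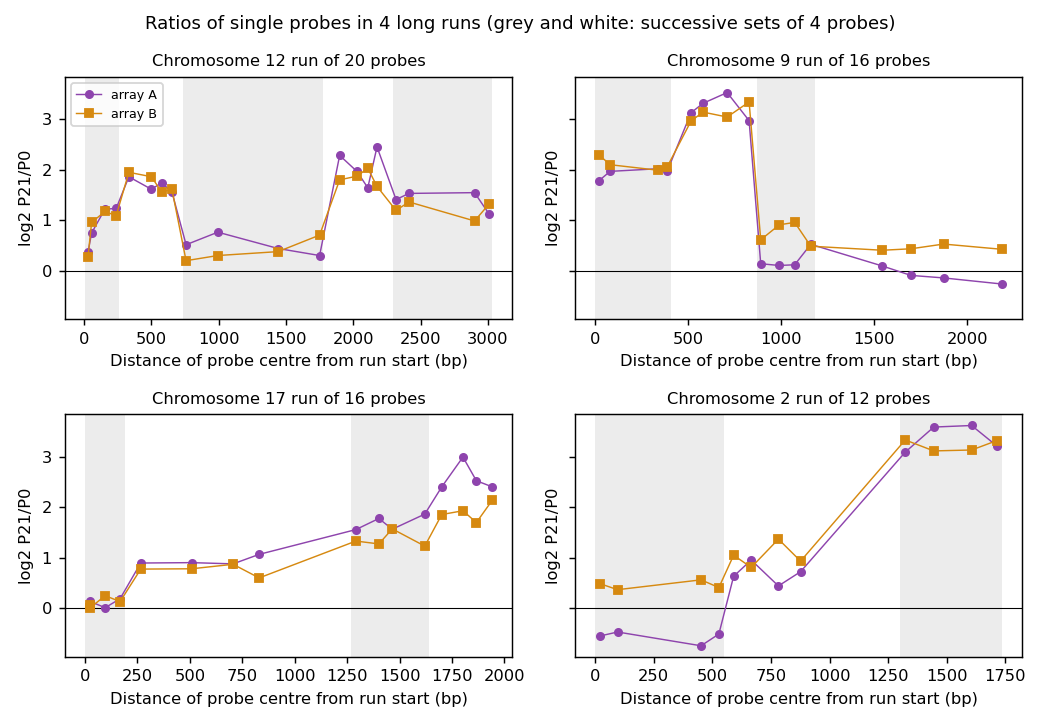
The log2 P21/P0 ratio of single probes on array A (purple circles) and array B (orange squares) against distance from the run start (bp) in 4 long members. Grey and white bands mark successive sets of 4 probes. Ratios are level within most sets and change between them, for example from 3.18 to 0.48 in mean between the second and the third set of the chromosome 9 run.

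The longest members by span showed the same. At chr2:165001362-165004637 (3276 bp, 12 probes, 1.55 ± 0.087) the set means were 1.95, 1.87 and 0.83. At chr12:77466190-77469285 (3096 bp, 12 probes, 1.47 ± 0.23) they were 2.77, 1.53 and 0.11, while P0 signal went the other way, at 9.73, 11.3 and 12.1. The fourth in length was chr5:140862924-140865795 (2872 bp, 10 probes, 1.49 ± 0.17).

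All 61 members with over 4 probes, of which 21 have a probe number that is no multiple of 4, were also split at their largest gap. This cut off a single probe in 24 of them. Of the 61, 33 had both sides at 1 or more, 13 had the weaker side between 1.5-fold and 2-fold, and 15 had it under 1.5-fold. A side was below 0 in 4. At chr10:8447324-8449390, the 7 probes on the left had ratios of 1.95 (A) and 2.03 (B) from a P0 signal of 9.34. The 4 on the right had -0.55 and -0.52 from a P0 signal of 12.8. On the left, the first 3 probes were dim at birth, with P0 signal from 5.13 to 6.52 over both arrays. The next 4 were bright, from 10.84 to 12.89, and had mean ratios from 1.46 to 1.92. So this member holds dim probes that gained, bright probes that gained and bright probes that were lower at P21. In 9 of the 327 members the probes at a ratio of 1 or more had a mean P0 signal under 10, and 7 of these held over 4 probes. At chr7:141314979-141317244 (19 probes, 1.68 ± 0.036) single probes ran from -0.76 to 3.20.

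The runs next to members gained most often at short range. Each member has a nearest run on either side, 654 flanks in all. The 26 that lay 500 to 1000 bp away, beside 25 members, had a median ratio of 0.36, and 20 were above 0. Of these 26, 7 (26.9%) met the gain rule, 4 of them being members. These 4 are 2 pairs counted from both sides, so 5 distinct neighbouring pairs gained. Beside other bright runs 1.65% of flanks at that distance gained, and beside all autosomal runs 3.05%. Gains from lower P0 signal had flanks with a median of 0.77 there, of which 39.2% gained. At 1 to 2 kb, 0 of 2 flanks of members gained. At 2 to 5 kb, 59 flanks of members had a median of 0.03 and 5.08% gained. Beside other bright runs 3.31% gained there, and beside all autosomal runs 5.51%. From 5 to 10 kb the shares beside members and other bright runs were 10.7% of 75 (8 flanks) and 3.96%. From 10 to 50 kb they were 4.65% of 258 and 4.59%, and beyond 50 kb 2.56% of 234 and 3.1%. Beside all autosomal runs the shares were 4.74, 4.47 and 3.07%, in the same order. These flanks are described with no test. Most flanks (567) lay over 5000 bp away, and the median distance between neighbouring autosomal runs was 0.0392 Mb.

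Members were found on all 19 autosomes. Chromosomes 2 and 4 held 31 each, chromosome 8 held 24, and chromosomes 7 and 11 held 23 each. As a share of bright runs, members ran from 2.31% on chromosome 6 (8 of 346) and 2.36% on chromosome 18 (5 of 212) to 5.61% on chromosome 16 (12 of 214) and 6.56% on chromosome 19 (16 of 244). The chromosome 19 interval, 4.08 to 10.4%, overlaps that of every other autosome but lies above the 3.91% of all bright runs. With 19 chromosomes looked at, it was not tested. Along the probed length of each chromosome, split in 5 equal parts from the low to the high coordinate, there were 38, 49, 52, 78 and 110 members. Bright runs rose in number in the same direction, and as shares of them the members made up 3.32, 3.88, 3.66, 4.64 and 3.85%.

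**Figure D5:**
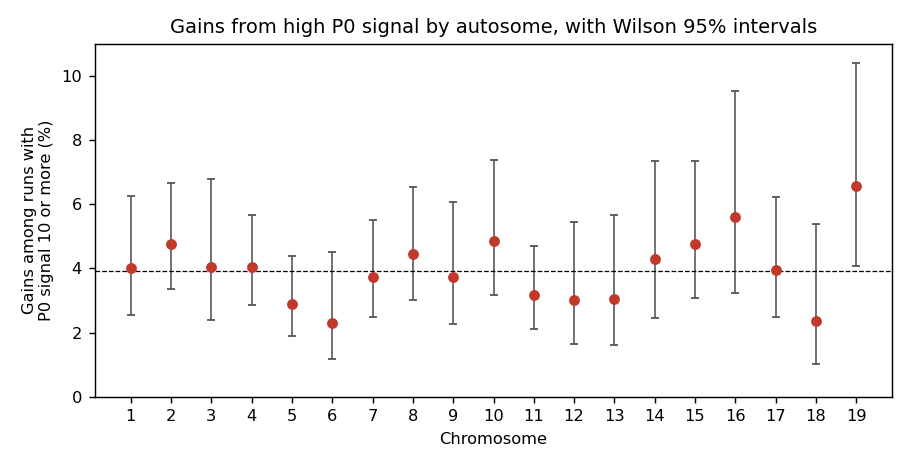
Members as a share (%) of runs with P0 signal of 10 or more on each autosome, with Wilson 95% intervals for counting error. The dashed line is the 3.91% of all autosomes together. Chromosome 19 is highest at 6.56% and chromosome 6 lowest at 2.31%.

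The stretch chr5:118028106-120971761 held 73 runs, 33 of them bright, and 4 members with ratios from 1.32 to 2.09. Members made up 2.89% of the bright runs of chromosome 5 (21 of 727) and 3.91% of all bright runs. The count of 4 is small and was not tested. The largest of the 4, chr5:118098948-118099730, had ratios of 1.97 (A) and 2.21 (B).

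Most members stood alone. The median distance between neighbouring members was 2.53 Mb, and 288 had no other member within 100 kb. Between neighbouring gains from lower P0 signal the median was 1.85 Mb. Such distances depend on how many runs a set holds, so they are a description and no trait of the members. The other 39 formed 18 groups, 3 of them with 3 members. At chr3:88302124-88329881 all 3 runs measured were members. Their ratios on arrays A and B were 1.612 and 1.102 at chr3:88302124-88302731, 2.75 and 2.17 at chr3:88326135-88326997, and 1.87 and 1.61 at chr3:88329393-88329881. Array A was above array B in each of them, and the middle run gained most. Across chr19:41707916-41800323, 3 of 6 runs were members, with ratios from 1.08 to 1.48, and 2 of the runs were at or below 0. Across chr16:30049674-30201297, 3 of 9 runs were members, 1 more gained from lower P0 signal, and 1 was at or below 0. The remaining runs there had mean ratios of 0.77, 0.12, 0.03 and 0.01, so most of these were near 0.

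The tightest pair were short runs of 2 probes on chromosome 8, 578 bp apart. At chr8:123568754-123568907 the ratios were 1.48 and 1.18, and at chr8:123569486-123569669 they were 2.14 and 1.74. Runs this close fall into separate members only through the 500 bp limit. The pair at chr4:153189194-153190866, with means of 1.04 and 1.32, lay 531 bp apart. At chr14:24144661-24151434 the means were 1.48 and 2.67, the second being the chromosome 14 run listed among the 12 largest gains.

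Close to the limits, members and other runs are alike. Just inside the ratio limit were chr18:61160507-61161124, chr3:131423778-131424359 and chr2:172593230-172594756, with means of 1.0011, 1.0013 and 1.0038. Just outside were chr16:31220487-31221027, chr17:48237338-48238119 and chr16:34032467-34032944, at 0.9997, 0.9986 and 0.9973. Just inside the P0 limit were chr8:73041077-73041843 (10.01), chr14:20388428-20389177 (10.02) and chr17:45064674-45065231 (10.04). Just outside it were chr2:92814915-92815710, chr15:31347012-31348272 and chr11:88276673-88277726, at 9.996, 9.995 and 9.966. A single bright run, chr16:13668077-13668581, missed only the limit for each array, with 1.85 (A) and 0.56 (B).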

How the data were processed

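Both scanner files were used as deposited. Their headers name Feature Extraction 10.5.1.1, and the submitters' processing notes 9.1.3.1. Per the file headers, log10 ratios are of red to green signal, with background subtracted and dyes normalised linearly. Processed intensity is linear in the deposited files, and flags for background, saturation and outliers are 0 or 1. The authors' own table holds the same log10 ratios, rounded and turned to P21 over P0 (largest difference 0.00496).

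Non-control spots (90535, or 90526 probes after 9 were averaged) were read in Python 3.11.15 with pandas 2.3.3. The 88674 autosomal probes were joined into runs. Log10 ratios were multiplied by log2 of 10, and array A was turned. Run values are means over probes, and signals are mean log2 processed intensities. No gene or probe sequence was matched, and lone probes and X runs were left out. Normexp (offset 50) and loess used limma 3.58.1 in R 4.3.3.

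Members, lists and the named regions were chosen with earlier results of these data known. Regions were named by rule: the 12 largest ratios, the 6 highest P0 and P21 signals, the 4 with most probes, the 4 longest, the 4 with the largest array difference, groups within 100 kb, and runs at the limits. Other regions named, and the sets of 4, were picked after their values were seen. The rule was tested on simulated data. With 2 arrays no p-value is given, and precision is limited by their number. Alternatives changed background correction, normalisation, flags, probe summary, gaps, limits and arrays.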

Additional observations from a re-analysis of the deposited data

How the results depend on the processing

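The number of members, 327, stayed within 1.5 times under all 15 alternatives, from 258 with the P0 limit raised by 0.5 to 427 with gaps of at most 250 bp. The settings with normexp or loess replaced the ratios alone, and the P0 limit kept the same processed signal. The number was 314 without replicate A, 346 without replicate B, 377 with normexp without loess and 278 with normexp and loess. All 278 were among the 327. The median ratio of the members moved from 1.46 to 1.31 with normexp and loess, and lay between 1.43 and 1.51 without either array. The 12 largest ratios ran from 2.29 to 3.19 with normexp and loess, and none of these 12 changed sign in any of 6 settings (0 of 72 values). These runs were chosen for the largest ratios, and the rule already held each array at 1.5-fold or more. A change of sign was thus shut out without either array and unlikely otherwise, so its absence is no support. Run shape depended on the gap limit. With gaps of at most 250 bp, the share of runs over 4 probes, minus that of other runs, turned from -4.05 to 0.30 percentage points. The difference in median span turned from -16.0 to 109 bp, and that in spacing from -9.62 to 5.90 bp per probe. With gaps up to 1000 bp they were -201 bp and -21.5 bp per probe. Here the other runs are all autosomal runs that are not members. Shorter gaps cut long runs by construction. Each array is already a ratio of P21 over P0, so the pairing of the ages is part of every ratio and no further pairing was made. With 2 arrays, differences between ratios below about the median SD of 0.12 have no order.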

Other observations

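Runs outside the autosomal rule gave few such gains. On the X chromosome 1 of 228 runs with P0 signal of 10 or more met the ratio rule (0.439%), at X:11157413-11157991, with ratios of 1.15 (A) and 1.06 (B). Of 711 lone autosomal probes with P0 signal of 10 or more, 9 gained (1.27%) and 10 were lower by the mirrored rule. The largest of these single-probe gains lay at chr8:98074520-98074570, with 2.36 and 1.87.

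The members held 3 probes with an outlier flag. Leaving these out moved chr12:113024149-113024751 from 1.36 to 1.45, chr16:30125815-30127028 from 1.39 to 1.55 and chr7:79445914-79446410 from 2.04 to 2.05.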
